A study of Mus musculus with 24 samples.

Results

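The RNA of the newborn lens epithelium was compared with that of the embryonic forebrain, gene by gene, in 2 of the 24 samples of a mouse series on tissues that use the transcription factor Pax6. The epithelium came from lenses of CD-1 mice at P1 and the forebrain from CD-1 embryos at E12.5, and CD-1 is an outbred albino stock that carried no labelled allele or agent in either group. Total RNA of each tissue was made into 1 directional dUTP library, and the authors gave each gene's level as RPKM, reads scaled by transcript length and library depth. A gene entered the comparison when it was listed at 1 RPKM or more in either library, which 12619 of 23947 genes were. The measure was the log2 ratio of epithelium over forebrain, log2((RPKM + 1)/(RPKM + 1)), on which differences of genes with low levels come out too small. A further library, from the fibers of P1 lenses, is quoted beside some values as a level for reference. Tissue and age differ together between the 2 libraries and cannot be told apart, and the labels do not state how many animals were pooled. With 1 library per tissue there is no replicate spread and no test, so every difference below is a difference between 2 libraries.

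The lens epithelium is the single layer of cuboidal cells under the front of the lens capsule. Its cells divide, secrete the basement membrane that forms the capsule, pump ions and solutes for the avascular lens, and at the lens equator leave the cell cycle and elongate into fibers filled with crystallins. The forebrain at E12.5 is a wall of dividing neural progenitors with the first layers of postmitotic neurons outside it. Pax6 is a paired-domain and homeodomain factor needed in both tissues, in lens from the surface ectoderm on and in forebrain in the progenitors of the cortex.

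Of the 12619 genes, 591 were at least 4-fold higher in epithelium (4.68% of the genes compared) and 410 were at least 4-fold lower (3.25%). At 2-fold the counts were 1731 higher (13.7%) and 1503 lower (11.9%), and the median log2 ratio of the genes compared was -0.03. These shares are the background for every gene class below. A gene that passed the level filter through 1 library alone was under 1 RPKM in the other. The filter thus favours genes that differ, so counts over the genes compared describe them and support nothing further. The genes nearest to the filter were Snhg11, at 1.00 RPKM in forebrain, just inside it, and Lin7a, at 0.9998 RPKM in epithelium, just outside. At the 4-fold line Tek lay just inside (log2 ratio 2.0002) and Neat1 just outside (1.9997). Protein-coding genes made up 558 of the 591 higher and 374 of the 410 lower genes.

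**Figure D1:**
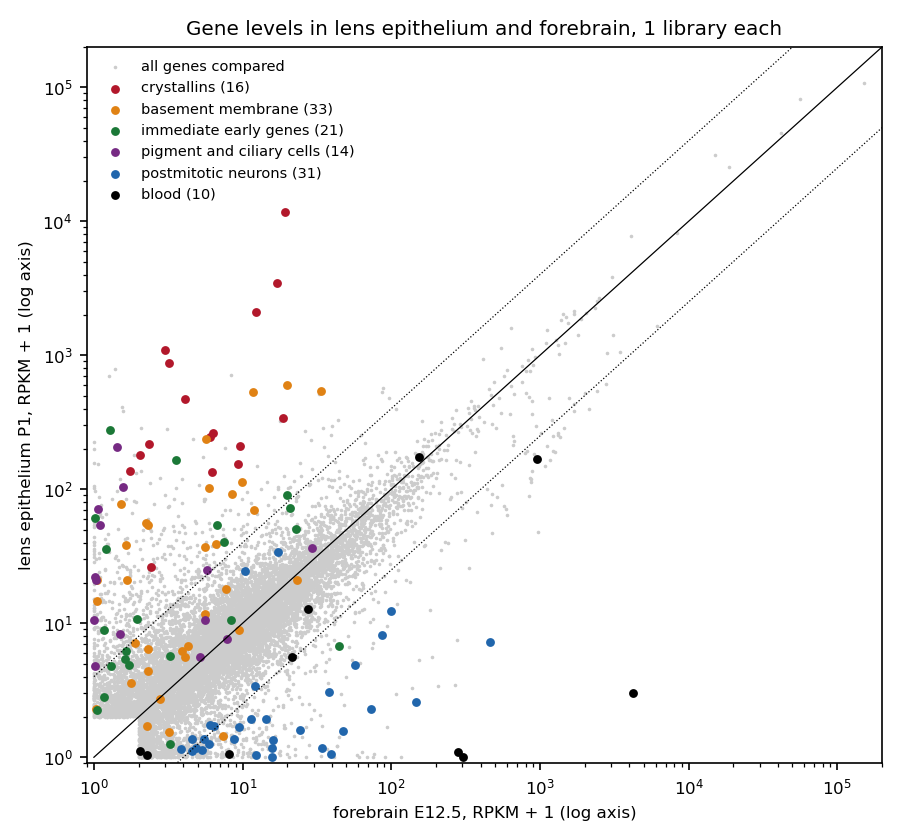
Level of each of the 12619 genes in lens epithelium (vertical, RPKM + 1) against forebrain (horizontal, RPKM + 1), both on log axes, with 6 gene lists coloured and dotted lines at 4-fold. The 16 crystallins all lie above the upper dotted line, and the postmitotic neuron genes lie mostly below the lower one.

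The 591 higher genes had a median of 20.1 RPKM in epithelium (quartiles 9.51 and 47.4), and 303 of them were under 1 RPKM in forebrain, 44 of these listed at 0. The 410 lower genes had a median of 12.8 RPKM in forebrain (6.69 and 42.0), and 245 were under 1 RPKM in epithelium, 25 of these listed at 0. Among the 591 higher genes the epithelium was the highest of the 3 libraries for 430 and the fibers for 161. Fibers lay at least 4-fold under the epithelium for 259 of them, within 4-fold for 273 and at least 4-fold over it for 59. Most of the higher genes were thus listed within 4-fold of the epithelium, or above it, in the other lens library. Fiber levels entered these counts as listed, without rescaling for the larger RPKM sum of that library given below.

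Some facts of the libraries bear on all values. Summed RPKM was 587475 in epithelium and 598020 in forebrain, of which 56.5% and 53.6% lay in the short noncoding RNAs Rmrp, Rpph1 and snoRNAs, and 2603161 in fibers, where crystallins took 85.5% of the protein-coding sum. Some genes that every cell uses were listed near 0, with Gapdh at 0.199, 0.483 and 0.573 RPKM and Rpl26 at 0.00502, 1.40 and 26.3 RPKM in epithelium, forebrain and fibers, while Actb was at 1014, 1342 and 1464 RPKM. A value at or near 0 can therefore be a failed estimate, and genes are called "listed at 0" for that reason. Xist and the Y-linked gene Ddx3y were both above 5 RPKM in each of the 3 libraries (27.1, 22.7 and 12.52 RPKM, and 13.4, 5.64 and 9.28 RPKM).

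The labels were checked against marker genes of each tissue, and all 12 lens epithelium markers listed were at least 4-fold higher but Pdpn (log2 ratio 1.89). In epithelium, Cdh1, the E-cadherin of epithelial junctions, was at 62.3 RPKM against 0.0821 in forebrain, and Foxe3, a forkhead factor of the lens epithelium, at 19.4 RPKM and listed at 0 in forebrain. Trpm3, a calcium-permeable channel, stood at 201 against 6.61 RPKM, Npnt, the integrin ligand nephronectin, at 37.7 against 0.6501, and Tfap2a at 3.19 against 0.02199. Forebrain held Tbr1, a factor of early cortical neurons, at 10.4 RPKM against 0.0107 in epithelium. Dlx1 of the ventral forebrain was at 16.5 against 0.0707 RPKM, and Dcx, the migrating-neuron protein doublecortin, at 33.3 against 0.1699. Each library thus carried the markers of its labelled tissue, and the epithelium listed each of these 3 forebrain markers under 1 RPKM. Of the other forebrain markers, Tubb3 was at 6.23 RPKM in epithelium against 461 in forebrain and Fabp7 at 2.47 against 269. Emx1 and Neurog2 were also under 1 RPKM in epithelium. The progenitor filament gene Nes was at 24.2 RPKM in epithelium and 58.2 in forebrain.

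Markers of other cells of the eye were also present in the epithelium library. Of the 19 genes of the pigment and ciliary list, 14 passed the level filter, 10 were at least 2-fold higher and 0 lower in epithelium, and the list's summed level was 577 RPKM in epithelium, 50.5 in forebrain and 53.01 in fibers. Tyrp1 and Tyr, enzymes of melanin synthesis, were at 21.2 against 0.0196 RPKM and at 3.76 against 0.0157, and Pmel, the fibril protein of melanosomes, at 52.7 against 0.0916. Oca2 stood at 20.2 against 0.0385 RPKM, Dct at 24.1 against 4.74, and Mlana at 9.57 RPKM and listed at 0 in forebrain. In fibers these 6 pigment genes were each under 1 RPKM, and each was highest in epithelium among the 3 libraries. Mitf, of the same list, was at 7.34 RPKM in epithelium, 0.499 in forebrain and 9.57 in fibers. Rlbp1 was at 6.57 RPKM in epithelium against 6.82 in forebrain. Rpe65, the isomerase of the retinal pigment epithelium, was listed at 0 in epithelium. Rax, a homeobox gene of the early retina, was at 15.8 against 0.188 RPKM, while Isl1, of retinal and other neurons, was lower (0.405 against 11.2). Of the 16 genes of the retina list 6 were compared, 4 were at least 2-fold higher and 1 lower, and the list summed to 36.1 RPKM in epithelium, 13.96 in forebrain and 4.24 in fibers. The cornea and surface list of 18 genes summed to 14.4, 2.19 and 11.4 RPKM in the same order, of which Perp alone held 5.72, 0.544 and 11.1. In epithelium 6 of its genes, among them the corneal keratin gene Krt12 and the basal keratin gene Krt5, were listed at 0. In fibers 13 were. Col9a1 (207 RPKM), Cp (104) and Wfdc1 (70.1), the last also a lens epithelium marker, carried most of the pigment and ciliary sum. Without these 3 it was 196 RPKM in epithelium, 49.4 in forebrain and 12.03 in fibers. The part of these cells in the values of genes they share with the lens was not tested. In a bulk library fewer cells of a type and less RNA per cell cannot be told apart.

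Vessels, macrophages and blood were present in both tissues to different degrees. Endothelium and pericyte genes were at least 2-fold higher in epithelium for 9 of 16 and lower for 0. Their list sum was 274 RPKM in epithelium, 76.6 in forebrain and 35.3 in fibers. Egfl7 alone held 65.4, 17.6 and 32.6 RPKM of these sums in the same order. The pericyte gene Rgs5 had the largest difference of that list (78.5 against 2.92 RPKM). The 7 genes not called higher were within 2-fold, among them Pecam1, Kdr, Tie1 and the endothelial cadherin Cdh5 (5.24 against 2.82 RPKM). Macrophage genes summed to 49.01, 22.8 and 1.77 RPKM. Of 10 compared, 3 were at least 2-fold higher, among them the complement gene C1qa (11.4 against 3.52 RPKM), and 0 were lower. The other 7 were within 2-fold, among them Csf1r (2.24 against 1.35 RPKM) and Cd68 (2.41 against 3.98). The blood list summed to 358 RPKM in epithelium, 5972 in forebrain and 16.6 in fibers. Embryonic globins made most of that difference: Hbb-y was at 1.995 against 4223 RPKM, Hbb-bh1 at 0.0855 against 280.3, and Hba-x was at 301 in forebrain and listed at 0 in epithelium. The adult beta globin Hbb-b1 was at 173 RPKM in epithelium and 153 in forebrain, within 2-fold, and adult alpha globin Hba-a1 at 166 against 956. Near-identical globin copies could share reads, so these values are uncertain between copies. The mesenchyme list was at least 2-fold higher in epithelium for 1 of 9 genes and lower for 6, and summed to 60.2, 94.6 and 4.02 RPKM. Its higher member Pdgfra, at 52.9 RPKM in epithelium, is also a receptor of lens epithelial cells, and without it the sums were 7.28, 91.7 and 1.55 RPKM. The fibroblast genes Col1a1, Col3a1 and Lum, also of this list, were each under 2 RPKM in epithelium.

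**Figure D2:**
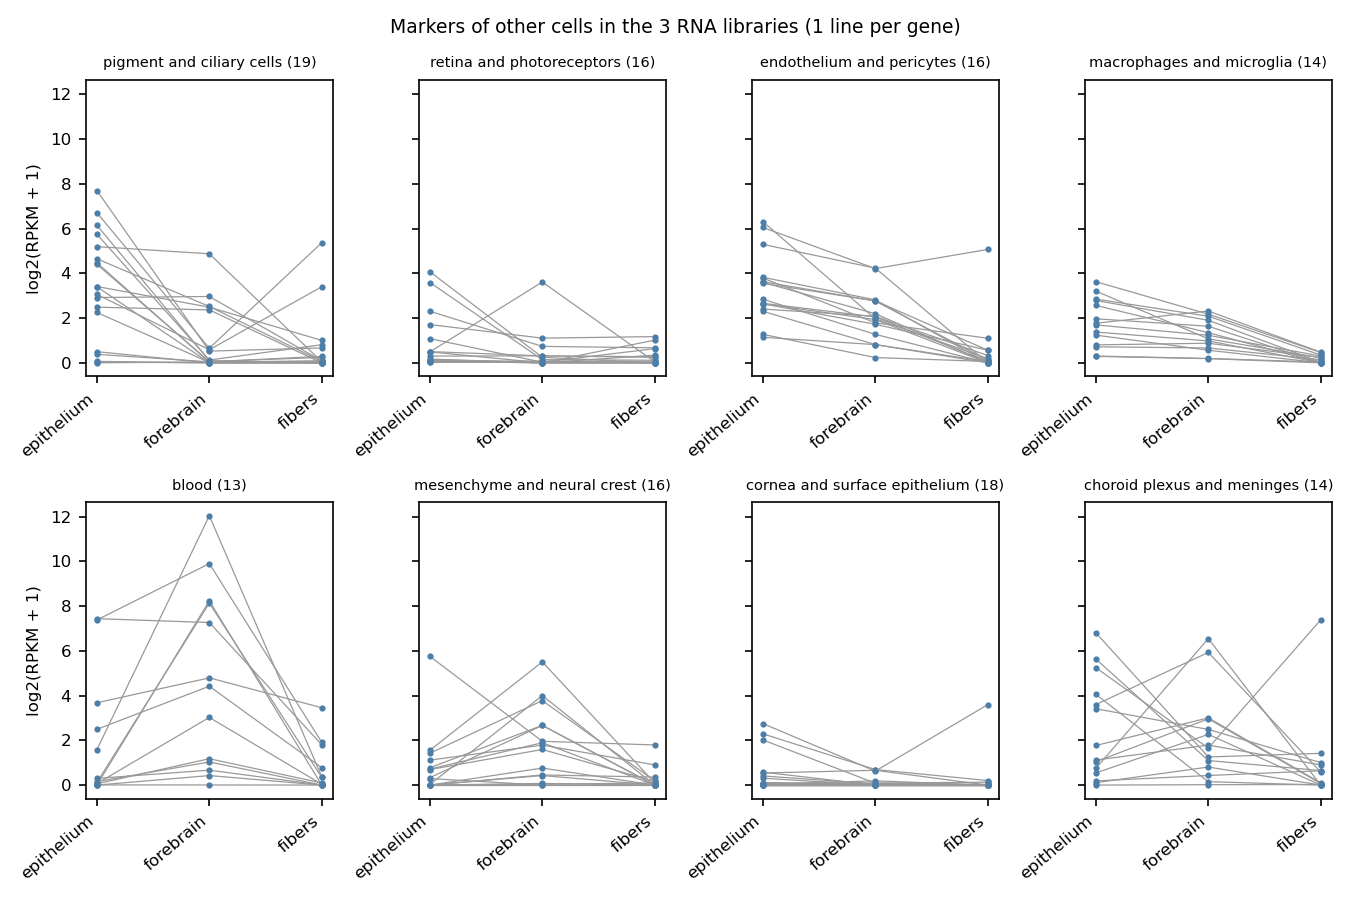
Level of each marker of 8 other cell types in the 3 libraries, as log2(RPKM + 1), 1 line per gene joining its level in epithelium, forebrain and fibers. Most pigment genes stand highest in the epithelium library and embryonic globins in the forebrain library, while cornea markers are low in all 3.

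Choroid plexus and meningeal genes were split, with 4 of 11 at least 2-fold higher in epithelium and 5 lower. Ttr, the thyroxine carrier of choroid plexus, was at 92.7 RPKM in forebrain against 0.687 in epithelium, and Crabp2 at 60.00 against 11.1. In the other direction stood Folr1, a folate receptor (111 against 1.39 RPKM), the water channel Aqp1 (48.7 against 1.14) and the sulfate transporter Slc13a4 (15.6 against 0.112), each under 2 RPKM in fibers. The remaining higher member, the matrix protein gene Ogn, was at 36.98 against 2.15 RPKM and at 167 in fibers.

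Among protein-coding genes with at least 10 RPKM in the higher library, 14 of the 15 highest ratios belonged to Cryaa, Aldh1a1, Cryab, Cryba2, Mgarp, Anxa1, Grifin, Fos, Crybb3, Cryba1, R3hdml, Aldh1a7, Col9a1 and Lim2. Crystallins and other fiber proteins shared this list with 2 aldehyde dehydrogenases, an annexin, an immediate early factor and a collagen. Promoters of 4 of these genes, chosen to show 1 gene of each of 4 classes (a crystallin, a retinoid enzyme, an annexin and an immediate early gene), are printed so that the classes can be seen beside their sequence. Each is the 250 bases before the RefSeq start of the gene on GRCm38.p6, on the strand of the gene, at chr17:31677681-31677930 (plus strand) for Cryaa, chr19:20492333-20492582 (plus) for Aldh1a1, the first of 2 starts in the table, chr19:20390672-20390921 (minus) for Anxa1 and chr12:85473640-85473889 (plus) for Fos. Capitals mark matches on either strand to 5 motifs: the TATA box TATAAA, the AP-1 motif TGACTCA, the half-site TGCTGA bound by large Maf factors, the TEAD motif GGAATG and the E-box CACCTG.
Cryaa: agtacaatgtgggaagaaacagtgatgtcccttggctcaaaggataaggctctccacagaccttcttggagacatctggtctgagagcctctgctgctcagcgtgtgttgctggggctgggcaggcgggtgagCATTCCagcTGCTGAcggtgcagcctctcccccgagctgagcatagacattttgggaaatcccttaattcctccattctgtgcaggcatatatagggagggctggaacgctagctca
Aldh1a1: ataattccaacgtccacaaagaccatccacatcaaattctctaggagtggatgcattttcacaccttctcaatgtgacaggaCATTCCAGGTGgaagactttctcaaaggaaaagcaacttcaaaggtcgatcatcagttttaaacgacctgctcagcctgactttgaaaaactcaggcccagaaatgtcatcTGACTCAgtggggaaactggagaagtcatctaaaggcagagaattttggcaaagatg
Anxa1: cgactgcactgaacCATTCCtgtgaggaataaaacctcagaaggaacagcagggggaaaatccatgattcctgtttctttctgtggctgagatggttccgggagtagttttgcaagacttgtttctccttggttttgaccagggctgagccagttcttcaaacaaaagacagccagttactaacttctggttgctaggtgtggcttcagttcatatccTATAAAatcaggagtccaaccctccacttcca
Fos: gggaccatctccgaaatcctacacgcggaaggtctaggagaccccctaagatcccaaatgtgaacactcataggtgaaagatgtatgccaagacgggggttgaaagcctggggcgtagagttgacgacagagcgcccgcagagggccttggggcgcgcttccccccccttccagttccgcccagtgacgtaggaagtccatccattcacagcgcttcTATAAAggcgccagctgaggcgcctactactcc

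Counted from the start site, the Cryaa window held TGCTGA at -108 to -103 and the reverse of the TEAD motif, CATTCC, at -117 to -112. Aldh1a1 held TGACTCA at -57 to -51, CATTCC at -168 to -163 and, sharing 1 base with it, CAGGTG, the reverse of the E-box, at -163 to -158. The word TATAAA lay at -32 to -27 in Anxa1 and at -33 to -28 in Fos, and Anxa1 also held CATTCC at -236 to -231. Only exact words were sought, so variants such as tatata near the end of the Cryaa window are not marked. Among the 32851 windows of this length in the RefSeq table, 12.4% held TATAAA, 4.46% the AP-1 motif, 16.1% TGCTGA, 12.6% the TEAD motif and 17.2% the E-box. TATAAA between -40 and -20 was found in 1.91%. Matches of these short words are a description of the sequence and no evidence of binding.

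Crystallins are the soluble proteins that give the lens its refractive index. All 16 were at least 4-fold higher in epithelium, with a median log2 ratio of 6.37 and a summed level of 21711 RPKM in epithelium, 108 in forebrain and 1800326 in fibers. Cryab, the small heat shock protein alpha B crystallin, was at 1095 RPKM against 2.01 in forebrain and 4138 in fibers, and Cryaa at 11819.8 against 18.2 and 138921. Fibers exceeded epithelium by less for these 2 alpha crystallins than for the beta and gamma crystallins. Cryba2 was at 869, 2.18 and 86596 RPKM and Crybb1 at 467, 3.08 and 109869, in epithelium, forebrain and fibers. The gamma crystallins ranged in epithelium from 25.4 RPKM for Crygf to 342 for Cryga. Gamma crystallin genes are close copies of each other, so reads may be shared among them. Whether crystallin RNA in the epithelium library came from epithelial cells or from attached fibers was not tested.

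For the genes most abundant in fibers, the forebrain level roughly followed the fiber level. Of the 19 protein-coding genes above 5000 RPKM in fibers, the forebrain held 2.51 to 33.5 RPKM per 100000 RPKM in fibers (median 5.88), and for the 15 crystallins among them 2.51 to 13.1 (median 5.39). Cryga was at 4.40 on this scale, Crygb at 4.44, Cryge at 4.54, Crygf at 4.64, Crygn at 4.80, Crygd at 5.39 and Cryba4 at 5.59. The highest crystallins were Cryaa at 13.1 and Crybb3 at 9.75, and the lowest Cryba2 at 2.51 and Crybb1 at 2.80. The epithelium's values on that scale were spread more widely, from 81.9 to 8508 (median 826). Part of the gamma crystallins lay close together there, with Crygb at 81.9, Crygf at 83.2, Cryga at 84.7, Cryge at 110 and Crygd at 137. Of the other gamma crystallins, Crygc was at 351, Crygn at 826 and Crygs at 951. Ratios over forebrain of the 19 genes rest on forebrain levels of at most 18.2 RPKM that roughly tracked the fiber level. The source of the forebrain reads was not tested.

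**Figure D3:**
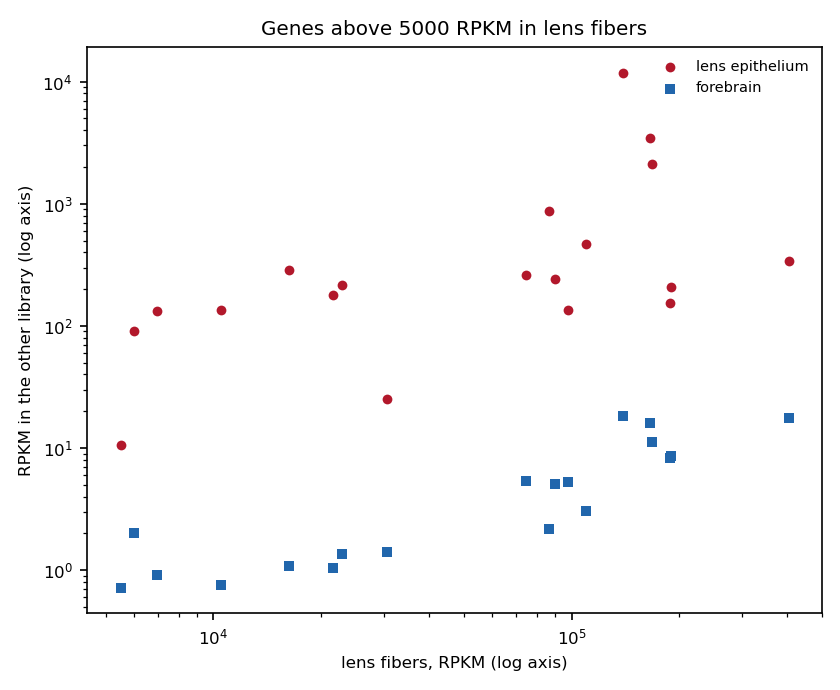
Level of the 19 protein-coding genes above 5000 RPKM in lens fibers, in lens epithelium and in forebrain (vertical, RPKM) against lens fibers (horizontal, RPKM), both axes logarithmic. Forebrain levels follow the fiber level within a band of 2.51 to 33.5 per 100000, and epithelium levels scatter over 81.9 to 8508 per 100000.

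Genes for membrane and cytoskeletal proteins of the fiber were also listed in the epithelium library, and whether their RNA came from epithelial cells or from attached fibers was not tested. Of the 11 compared of 14 in the table, 11 were at least 2-fold higher and 0 lower (median 2.76). Lim2, a fiber membrane protein, was at 286 RPKM in epithelium, 1.07 in forebrain and 16276 in fibers, and the beaded filament gene Bfsp2 at 132, 0.921 and 6941. Both were far below their fiber level in epithelium. Grifin, a galectin-related lens protein, was at 225 RPKM in epithelium and 2298 in fibers and was listed at 0 in forebrain. Mgarp, a mitochondrial protein, was at 413, 0.536 and 1262 RPKM.

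**Figure D4:**
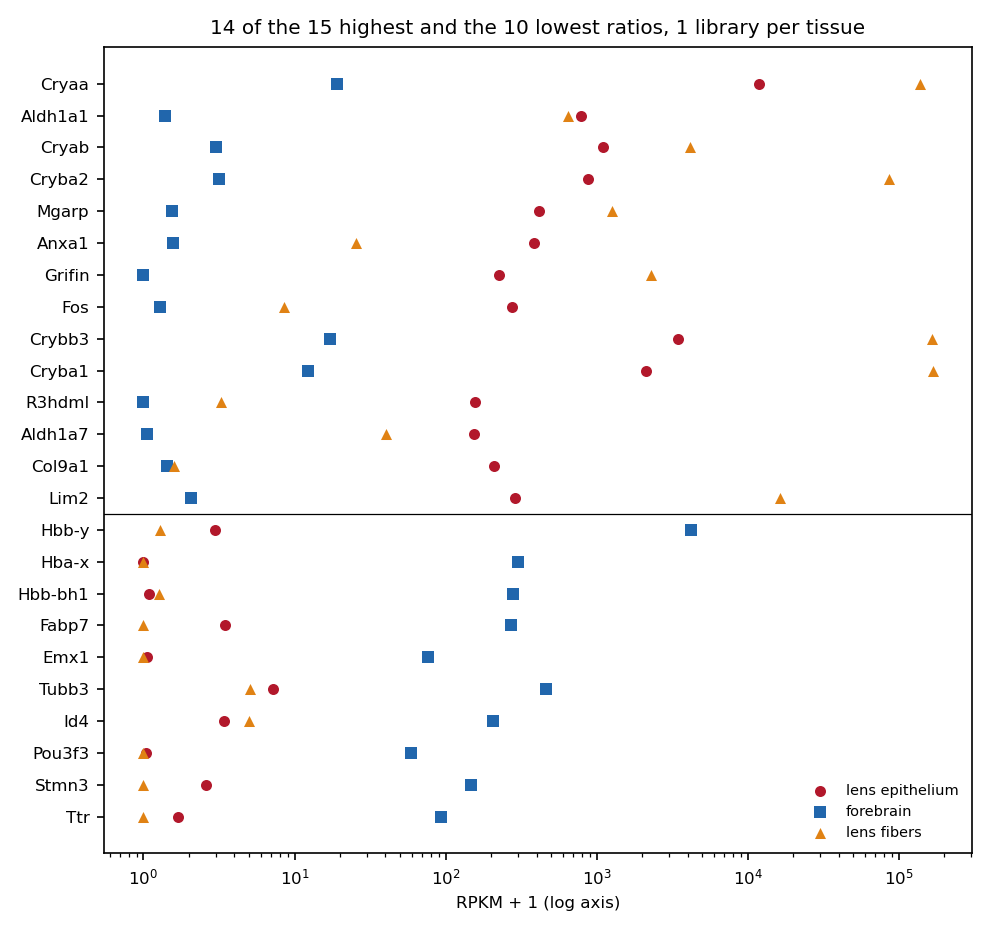
Level (RPKM + 1, log axis) of 14 of the 15 genes with the highest and the 10 with the lowest ratios, in lens epithelium (circles), forebrain (squares) and lens fibers (triangles). Crystallins, Grifin and Lim2 lie further right in fibers than in epithelium, while Anxa1, Fos, R3hdml and Col9a1 lie furthest right in epithelium.

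The transcription factors of the lens were mostly higher, with 19 of 28 at least 2-fold higher and 3 lower (median 1.52). Pitx3, a homeobox factor whose loss gives the aphakia mouse, was at 34.99 RPKM in epithelium, listed at 0 in forebrain and at 37.3 in fibers. Mab21l2 was at 28.7 against 0.457 RPKM, and Prox1, a factor of fiber differentiation, at 35.1 against 1.03, with 123 in fibers. The 3 members at least 2-fold lower were Meis2 (5.24 against 25.1 RPKM), Otx2 (1.07 against 6.799) and Sox2 (32.3 against 86.4), which also serve the neural tube. Pax6 was listed at 142 RPKM in epithelium, 28.1 in forebrain and 24.02 in fibers, so its epithelial level was the highest of the 3 by a log2 ratio of 2.29 over forebrain.

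Genes of epithelial architecture were in part higher and in part within 2-fold. Among junction and polarity genes, 16 of 32 were compared, 9 were at least 2-fold higher and 0 lower. After Cdh1, the largest ratio was that of Perp, a desmosomal tetraspan protein (5.72 against 0.544 RPKM, log2 ratio 2.12). The claudins, which seal tight junctions, numbered 6 of 24 past the filter, 4 of them higher: Cldn1 was at 14.5 against 0.619 RPKM and Cldn19 at 6.82 against 0.154. Cldn5, a claudin of endothelium, was at 38.3 against 17.8 RPKM, and Cldn11 was the 1 claudin lower in epithelium (0.514 against 6.69). Of 50 keratins, which form the filaments of most epithelia, 3 passed the filter, with Krt18 at 3.898 and Krt19 at 3.05 RPKM in epithelium. Vim, the intermediate filament gene of lens and neural progenitors, was at 945 against 411 RPKM.

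Integrins attach cells to the basement membrane, and 5 of 9 compared were at least 2-fold higher and 1 lower. Itga3, a laminin-binding subunit, was at 15.5 RPKM against 0.761 in forebrain and 0.227 in fibers. Itgb5 was at 47.9 against 2.44 RPKM and Itgb1, the beta subunit shared by most of the family, at 105 against 37.3. The member lower in epithelium was Itgb8 (5.28 against 12.2 RPKM).

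Basement membrane genes, which build the lens capsule, were mostly higher. Of 33 compared, 23 were at least 2-fold and 17 at least 4-fold higher, 2 were lower, the median log2 ratio was 2.55, and summed levels were 2728 RPKM in epithelium against 183 in forebrain and 1896 in fibers. Tinagl1, a matricellular protein of basement membranes, had the largest ratio (76.1 against 0.515 RPKM, 0.443 in fibers). Nid1, the linker nidogen 1, was at 235 against 4.64 RPKM, with 224 in fibers. Ntn4 and Lamc3, a netrin and a laminin gamma chain, were the lower members, at 0.444 against 6.38 and 0.544 against 2.19 RPKM.

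The 6 chains of type IV collagen, the network former of basement membranes, are given whole, a choice made after their values were seen. Col4a1 was at 595 RPKM in epithelium, 18.9 in forebrain and 470.4 in fibers, and Col4a2 at 532, 10.8 and 470.4. Col4a5 was at 102, 4.98 and 120.3 RPKM, and Col4a6 at 55.4, 1.24 and 76.9. Levels were lower for Col4a3 (20.1, 0.0414 and 4.29 RPKM) and Col4a4 (13.7, 0.0453 and 2.57). All 6 were at least 4-fold higher in epithelium than in forebrain, and fibers were within 2-fold of epithelium for Col4a1, Col4a2, Col4a5 and Col4a6 and over 4-fold lower by plain RPKM for Col4a3 and Col4a4. By RefSeq on GRCm38.p6, the closest starts of Col4a1 and Col4a2 lie 21 bases apart on opposite strands of chromosome 8. Those of Col4a5 and Col4a6 lie 1343 bases apart on the X chromosome, and no distance was obtained for Col4a3 and Col4a4. In epithelium the partners of each pair lay within 2-fold of each other.

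Genes that fold and crosslink collagen were also mostly higher. Of 23 compared, 17 were at least 2-fold higher and 0 lower (median 1.42), led by the lysyl oxidase relative Loxl1 (59.05 against 1.299 RPKM). The prolyl 4-hydroxylase subunit P4ha2 was at 25.7 against 0.873 RPKM, the prolyl 3-hydroxylase Leprel1 at 18.05 against 0.768 and the collagen galactosyltransferase Colgalt2 at 13.3 against 0.314.

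Fibrillar and interstitial matrix divided instead, with 7 of 19 at least 2-fold higher and 6 lower (median -0.45). On the higher side were genes of microfibrils and elastic fibers: the fibrillin Fbn2 (29.1 against 2.03 RPKM, 0.0653 in fibers), Mfap2 (125 against 17.99) and Mfap4 (64.6 against 11.6), and also Thbs1 (46.9 against 4.303). On the lower side were Lum (0.0175 against 15.02 RPKM), Col3a1 (1.94 against 44.6), Col1a2 (1.68 against 12.7) and the proteoglycan Vcan (7.13 against 35.2). The 3 chains of type IX collagen, chosen after their values were seen, were at 207 (Col9a1), 47.6 (Col9a2) and 31.99 (Col9a3) RPKM in epithelium against 0.438, 1.42 and 1.96 in forebrain, and all 3 were under 2 RPKM in fibers. Col9a1 is also a marker of the ciliary epithelium, and the part of ciliary cells in its value was not tested.

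The list of retinoid metabolism and binding held 2 of the 15 highest ratios and a mixed remainder. Aldh1a1, which makes retinoic acid from retinaldehyde and also clears aldehydes, was at 784 RPKM in epithelium, 0.378 in forebrain and 643 in fibers. Aldh1a7, its close paralog, was at 154, 0.0595 and 39.4 RPKM, and the division of reads between these paralogs is uncertain. Stra6, the cell-surface receptor that takes up retinol, was at 27.7 against 1.54 RPKM, and the reductase Dhrs3 at 9.49 against 0.7295. Cyp26a1, which degrades retinoic acid, was at 4.12 against 0.04299 RPKM, and Rdh10, which makes retinaldehyde, at 21.1 against 3.802. Of the nuclear receptors, Rarb was at 10.5 against 2.57 RPKM and Rara at 4.14 against 1.34, while Rarg, Rxra and Rxrb were within 2-fold. Lower in epithelium were the binding proteins Crabp2 (11.1 against 60.00 RPKM), Crabp1 (2.28 against 10.99) and Fabp5 (37.1 against 104), the last of which was at 2759.9 RPKM in fibers. Over the 18 members compared, 9 were at least 2-fold higher and 3 lower.

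Ion and water transport maintains the transparency of the lens. Atp1b3, a beta subunit of the sodium pump, was at 234 against 27.7 RPKM, and at 22.2 in fibers. Another beta subunit, Atp1b1, was within 2-fold (3.69 against 2.28 RPKM). Fxyd1, a small regulator of the pump, was at 17.5 against 0.815 RPKM, while Fxyd6 of the same family was lower (5.99 against 36.3). Among water channels, Aqp1 was at 48.7 against 1.14 RPKM and 0.569 in fibers, while Mip, the fiber aquaporin, was at 90.4 against 2.01 and 5994 in fibers. The order of these 2 channels between epithelium and fibers was thus opposite. Over the whole list of 13 compared, 8 were at least 2-fold higher and 2 lower.

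Connexins couple lens cells to each other. Gja1, connexin 43, was at 98.8 RPKM in epithelium, 16.4 in forebrain and 0.4403 in fibers, and Gja3, connexin 46, at 96.2, 0.0239 and 731. The neuronal connexin Gjd2 was at 0.0136 against 1.93 RPKM and the channel gene Panx1 at 5.61 against 19.4, both lower in epithelium, and Gjc1 and Gja4 were within 2-fold. Gja1 and Gja3 thus stood at like levels in the epithelium, while in fibers Gja1 was under 1 RPKM.

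Solute carriers made the largest of the lists, with 217 of 383 compared, 53 at least 2-fold higher, 19 lower and a median of 0.26. Slc2a1, the glucose transporter GLUT1, was at 515 RPKM against 31.9 in forebrain and 66.03 in fibers. Amino acid carriers supplied the largest ratios: the cationic carrier Slc7a2 (65.5 against 0.792 RPKM), the neutral exchanger Slc7a8 (41.5 against 0.178) and the glutamine carrier Slc38a3 (83.1 against 2.46). Slc3a2, the heavy chain that pairs with exchangers such as Slc7a8, was at 112 against 13.6 RPKM. Slc16a12, a creatine carrier whose human gene is tied to cataract, was at 26.3 against 0.542, and at 34.8 in fibers. Furthest on the lower side were Slc17a6, the vesicular glutamate carrier of neurons (0.0345 against 11.4 RPKM), and Slc4a1, the anion exchanger of red cells (0.0496 against 7.14).

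Energy metabolism differed in a few of its members. Of 33 glycolysis and hypoxia genes, 6 were at least 2-fold higher, 3 lower and 24 within 2-fold, and the median was 0.13. Over all genes compared, 13.7% were at least 2-fold higher and 11.9% lower. Hif1a, the oxygen-sensitive factor that drives glycolytic genes, was at 176 against 36.3 RPKM and the aldolase Aldoc at 107 against 26.8, while Pkm (426 against 484) and Ldha (174 against 174) were alike. Ldhb was lower, at 11.6 against 63.1 RPKM, as was the neuronal glucose transporter Slc2a3 at 0.421 against 3.82. Cholesterol and fatty acid synthesis had 0 of 27 genes at least 2-fold higher and 9 lower (median -0.65), among the lower Fdps (7.93 against 29.1 RPKM) and Fdft1, which makes squalene (9.67 against 25.3).

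Antioxidant defence protects the lens from light and peroxide. Of 43 genes compared, 14 were at least 2-fold higher and 3 lower. Gstm1, a glutathione transferase, was at 136 RPKM against 1.09 in forebrain and 11.6 in fibers, and Gstm2 at 25.3 against 0.482, though reads may be split among the copies of this family. Gss, the second enzyme of glutathione synthesis, was at 40.97 against 6.28 RPKM and 698 in fibers. The metallothioneins Mt1 (8.15 against 27.5 RPKM) and Mt2 (4.57 against 18.7) were lower in epithelium, and the peroxiredoxin Prdx1 was within 2-fold (148 against 130.0).

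Signalling genes differed by pathway. In the TGF-beta and BMP list 18 of 39 were at least 2-fold higher and 4 lower (median 0.75). The higher members included secreted modulators: the BMP antagonist Grem1 (18.4 against 0.168 RPKM), the latent TGF-beta binding protein Ltbp1 (24.4 against 0.676) and the follistatin relatives Fstl1 (271 against 25.3) and Fstl3 (10.04 against 0.148). The BMP antagonist Nog was lower (0.0835 against 3.64 RPKM). The Id genes, targets of BMP that block bHLH factors, did not share a direction. Id3 was at 204 against 34.5 RPKM and Id1 at 85.9 against 15.3, but Id4 was at 2.400 against 205.

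Wnt pathway genes were divided almost evenly, 14 higher and 13 lower of 37 (median 0.06). Dkk3, a secreted Dickkopf relative, was at 172 RPKM in epithelium, 4.39 in forebrain and 814 in fibers. The R-spondin receptor Lgr4 was at 51.99 against 2.42 RPKM, whereas the R-spondin ligands Rspo3 (0.1001 against 10.01) and Rspo2 (0.0507 against 6.27) were lower. The secreted antagonist Sfrp1 was at 103 against 39.2 RPKM and the ligand Wnt7b at 63.2 against 20.2. A receptor and its ligands thus stood on opposite sides in these libraries.

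In the FGF list, 4 of 25 were at least 2-fold higher and 4 lower (median 0.11). Receptors were at 31.1 against 12.7 RPKM for Fgfr2 and 56.9 against 47.6 for Fgfr3, and the feedback genes Spry2 and Dusp6 at 7.31 against 2.57 and 22.6 against 9.45. The forebrain ligand Fgf17 was at 0.136 against 4.77 RPKM. Notch genes were higher for 2 of 25 and lower for 8, among the latter the inhibitory ligand Dll3 (0.314 against 7.35 RPKM) and the target Hes5 (17.5 against 63.8). Jag1, the Notch ligand of the lens, was at 43.8 RPKM in epithelium, 5.19 in forebrain and 81.8 in fibers, and Notch2 was at 17.9 against 7.68. Hedgehog genes had 0 of 11 higher and 1 lower, the co-receptor Boc (2.79 against 11.3 RPKM), while the transducer Smo was at 36.6 against 29.8.

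Of 19 genes of the YAP and TEAD pathway, 4 were at least 2-fold higher and 1 lower. Cyr61 was at 69.2 RPKM against 7.19 in forebrain and 0.5495 in fibers, and Ctgf at 21.9 against 1.46 and 2.14, both of them matricellular proteins and known targets. The atypical cadherin Fat1 was at 68.3 against 11.3 RPKM, and Tead2 was within 2-fold (67.5 against 102). Among growth factor receptors and ligands, 9 of 23 were higher and 3 lower. Pdgfra, a receptor through which PDGF drives lens epithelial growth, was at 52.9 RPKM against 2.89 in forebrain and 2.47 in fibers. Epha2, whose loss disturbs lens cell packing, was at 6.84 against 0.744 RPKM and 42.5 in fibers, and its ligand Efna1 at 20.2 against 2.87 and 0.3198. Receptor and ligand thus had opposite orders between epithelium and fibers.

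Secreted proteins added high levels. Igfbp7 was at 716 RPKM in epithelium, 7.39 in forebrain and 729 in fibers, and Igfbp5 at 39.8, 6.66 and 0.0486. Of the 6 IGF binding proteins compared, 3 were at least 2-fold higher and 2 lower, the latter being Igfbpl1 (0.204 against 42.03 RPKM) and Igfbp2 (60.7 against 154). Secreted chaperones, carriers and protease inhibitors were higher for 13 of 21 and lower for 2 (median 1.46). Clu, the extracellular chaperone clusterin, was at 238 against 3.62 RPKM and 450.5 in fibers, and Ptgds, a prostaglandin D synthase and lipid carrier, at 64.8 against 0.0937 and 1.18. Serpinf1, which encodes the antiangiogenic factor PEDF, was at 40.6 against 2.59 RPKM, and the protease inhibitor gene Wfdc1 at 70.1 against 0.0712. R3hdml was at 155 RPKM, listed at 0 in forebrain and at 2.24 in fibers.

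Annexins and S100 proteins, both calcium-binding, were higher nearly throughout. Each of the 7 annexins compared was at least 2-fold higher (median 1.40), led by Anxa1, a phospholipid-binding protein with anti-inflammatory action, at 382 RPKM against 0.571 in forebrain and 24.4 in fibers. Anxa2 was at 85.7 against 21.8 RPKM. Of 9 S100 genes, 8 were higher and 0 lower, with S100a6 at 54.97 against 3.85 RPKM and S100a1 at 21.4 against 1.54. Contractile and actin-binding genes were higher for 9 of 23 and lower for 3. Ezr, the membrane linker ezrin, was at 158 against 40.6 RPKM and the smooth muscle actin Acta2 at 6.86 against 0.585, and the neuronal Tagln3 was lower (8.55 against 92.95).

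Immediate early genes, which respond within minutes to growth factors or stress, were at least 2-fold higher for 17 of 21 and lower for 2 (median 1.88). Fos was at 274 RPKM in epithelium, 0.291 in forebrain and 7.57 in fibers, and Fosb at 60.1, 0.01801 and 0.534. Junb, a partner of both in AP-1, was at 164, 2.54 and 13.3 RPKM, and Egr1 at 34.9, 0.208 and 1.51. For these 4 genes the epithelium was the highest of the 3 libraries. The lower members were Gadd45g (5.75 against 43.6 RPKM, with 225 in fibers) and the orphan receptor Nr4a2 (0.264 against 2.24). Heat shock and chaperone genes, which also answer to stress, were higher for 4 of 17 and lower for 2. Apart from the alpha crystallins, the largest ratio there was that of Hspb2 (96.01 against 0.426 RPKM), a neighbour of Cryab, while Hspa5 (184 against 144) and Hsp90ab1 (305 against 262) were alike and Hsph1 was lower (3.21 against 12.54).

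Interferon-related and MHC class I genes were higher for 8 of 17 and lower for 0 (median 1.00). Ifitm3, a membrane protein that restricts viral entry, was at 13.00 against 0.822 RPKM, Irf1 at 12.9 against 1.29 and B2m, the light chain of MHC class I, at 25.1 against 8.28. Of 10 macrophage genes, 3 were also at least 2-fold higher, and their part in these values was not tested.

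Genes of the dividing state were lower in epithelium. Of 36 cell cycle and replication genes, 29 were at least 2-fold lower and 1 higher (median -1.44), with summed levels of 596 RPKM in epithelium, 1509 in forebrain and 117 in fibers. Ube2c, a ubiquitin-conjugating enzyme of mitotic exit, was at 13.5, 80.4 and 0.177 RPKM, and the mitotic cyclin Ccnb1 at 4.89, 25.2 and 0.252. The epithelium thus lay between forebrain and fibers for these genes. Ccnd3, a D-type cyclin, was the member higher in epithelium (29.6 against 12.7 RPKM). Genes whose symbol starts with Hist, mostly replication-dependent histones, had the same order over 58 genes, with a median of 174.6 RPKM in epithelium, 851.5 in forebrain and 4.58 in fibers. At least 4-fold lower in epithelium were 39 of these 58 (67.2%), and 0 were 4-fold higher. Most of these transcripts carry no poly(A) tail, the libraries were made from total RNA, and near-identical copies can share reads.

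Cell cycle exit genes gave no shared direction, with 3 of 14 at least 2-fold higher and 3 lower. Cdkn1c, the inhibitor p57 that marks cells leaving the cycle at the lens equator, was at 295 RPKM in epithelium, 38.8 in forebrain and 412 in fibers. The antiproliferative gene Btg1 was at 68.8 against 6.63 RPKM, and Cdkn1b, the inhibitor p27, was within 2-fold (30.2 against 46.4). Cdkn1c is also imprinted, and of 25 imprinted genes 6 were higher and 13 lower (median -1.02). Nnat, neuronatin, was at 47.1 against 967 RPKM and Peg10 at 0.264 against 6.09, while Peg3 was at 55.4 against 13.8.

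Classes of the forebrain were lower in epithelium. Forebrain patterning and lineage factors were at least 2-fold lower in epithelium for 29 of 35 and higher for 1 (median -2.68). Pou3f3, a POU factor of upper-layer neurons and progenitors, was at 0.0335 RPKM in epithelium against 57.95, and Neurog2, a proneural factor, at 0.423 against 43.4. Six3, a homeobox gene of both forebrain and lens, was the member higher in epithelium (3.91 against 0.563 RPKM). Neuron genes were lower for 29 of 31 and higher for 1, with the microtubule regulators Stmn3 at 1.61 against 146 RPKM and Stmn2 at 1.29 against 72.4. The member higher in epithelium was Reln, the secreted protein reelin of Cajal-Retzius neurons (23.6 against 9.38 RPKM, 0.0547 in fibers).

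Of 20 progenitor genes, 12 were lower, Fabp7 among them, the fatty acid binding protein of radial glia (2.47 against 269 RPKM), with the receptor phosphatase Ptprz1 at 0.642 against 18.2. The 2 members higher in epithelium were Pax6 and Vim. Axon guidance genes were lower for 17 of 38 and higher for 10: Epha4 and Epha3 were at 1.47 against 46.8 and 0.717 against 33.4 RPKM. Ligands were among the higher ones, with Slit3 at 10.1 against 0.137 RPKM, the semaphorin Sema3a at 31.5 against 4.68 and Sema5a at 27.7 against 5.47.

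**Figure D5:**
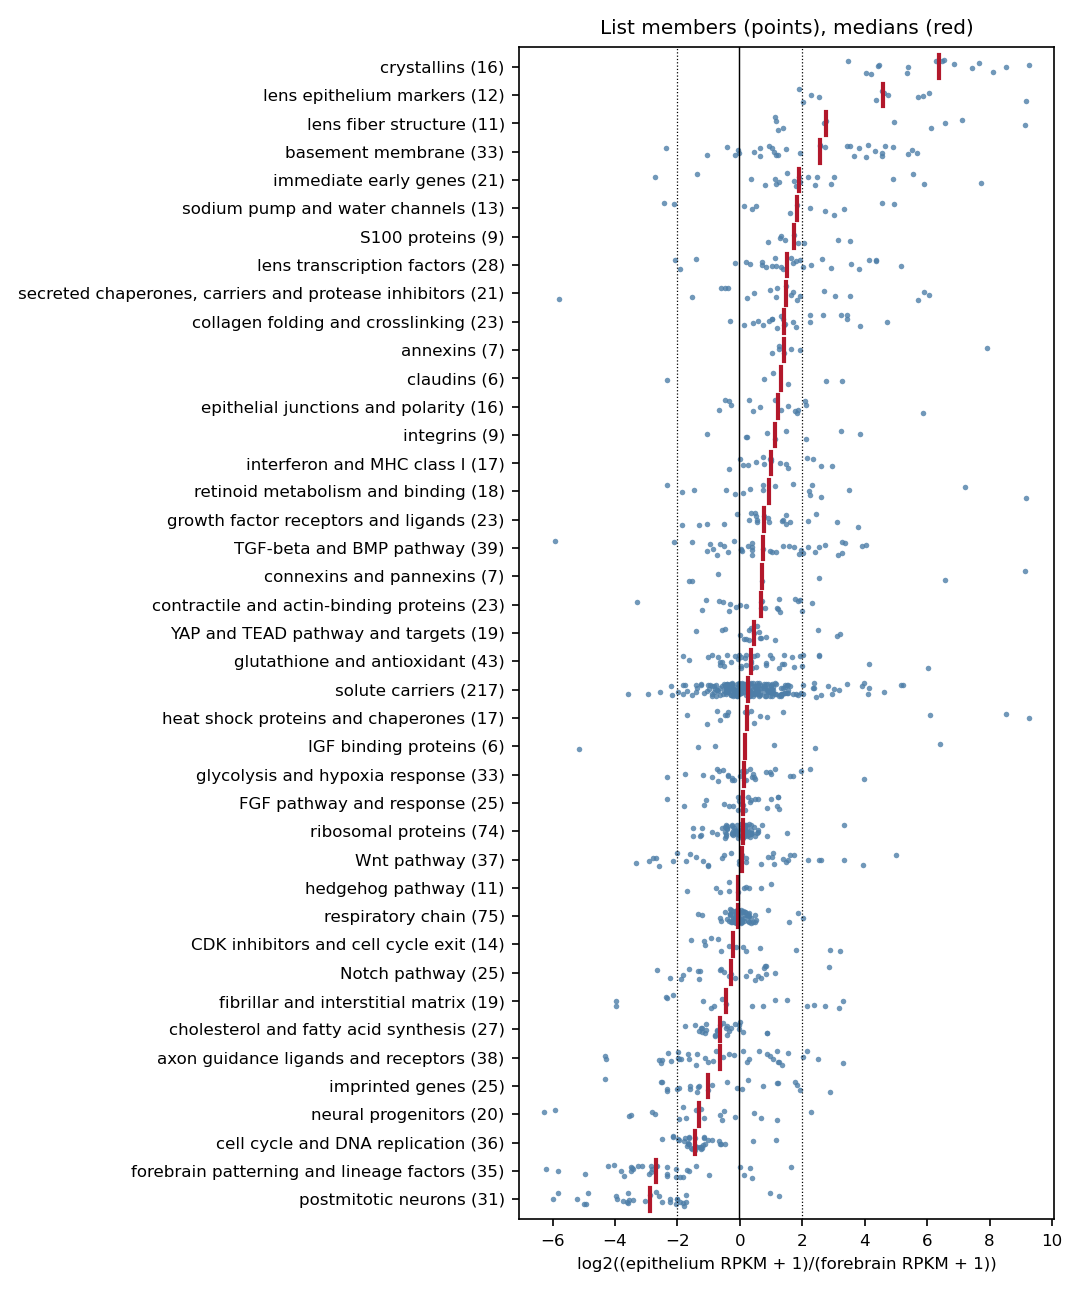
Log2 ratio of epithelium over forebrain (horizontal) for every member compared (points) of the gene lists with at least 6 such members, leaving aside the lists of other cell types, sorted by list median (red bars), with the solid line at the median of all genes and dotted lines at 4-fold. Crystallins stand at the top (median 6.37) and postmitotic neurons at the bottom (-2.88), and basement membrane (2.55) lies next below crystallins, lens epithelium markers and lens fiber structure.

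Genes that most cells use for protein synthesis and respiration lay near the middle. Of 74 ribosomal protein genes, 2 were at least 2-fold higher and 5 lower (median 0.09), with Rplp1 at 1753 against 1535 RPKM. The exceptions Rpl35a (31.9 against 2.24 RPKM) and Rps2 (7.63 against 23.5) have many processed copies in the genome, so their values are uncertain. Respiratory chain genes were higher for 3 of 75 and lower for 2 (median -0.06), with the ATP synthase gene Atp5b at 479 against 526 RPKM.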

How the data were processed

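RNA values are RPKM per gene as deposited by the authors, in 1 table with a column each for forebrain, lens epithelium and lens fibers. TopHat2 (version 2), Cufflinks (version 2), Cuffdiff and the build mm9 are named in the submitters' processing notes, without their roles. Neither the notes nor the labels give the gene models, the handling of reads that match several places, the scaling between libraries or the depth of any library. RPKM holds no counts, so counting errors could not be given.

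Genes at 1 RPKM or more in either library were compared by log2((RPKM + 1)/(RPKM + 1)), with 4-fold and 2-fold lines at 2 and 1. No test was run, since each group held 1 library. Of 23947 symbols, 23792 matched the RefSeq table of GRCm38.p6, which gave gene types (20418 protein coding) and promoter sequence. The 50 gene lists and the comparison itself were chosen with earlier results of these data known.

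Named genes are the 15 highest and 10 lowest ratios among protein-coding genes with at least 10 RPKM in the higher library, and in each list up to 4 members in its majority direction (at least 5 RPKM) and up to 3 furthest past 2-fold the other way. Pax6, markers, the 5 highest members of lists that did not differ and groups shown whole were added. Exceptions are marked in the text. Promoter windows were found for 73.6% of the higher, 71.7% of the lower and 79.4% of the compared genes, so a comparison of motif shares between these sets is void and was not made. Alternatives changed the added constant, the filter, the scaling and the genes used. The counting was tested on simulated data. Python 3.11.15, numpy 2.4.6, pandas 2.3.3 and matplotlib 3.10.9 were used. Chromatin lists of the series and the mm9 annotation were not used here. Some genes that the rule selects are not reported here by name.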

Additional observations from a re-analysis of the deposited data

How the results depend on the processing

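With 0.1 RPKM added in place of 1, the 4-fold counts were 1112 higher and 865 lower in epithelium, and with 5 RPKM added 259 and 137, against 591 and 410. The added constant thus sets these counts, through genes with low values. Under the other alternatives the counts stayed within 1.5 times: no filter (591 and 410), a filter at 5 RPKM (547 and 349), sums scaled to 1000000 (764 and 546), the same without crystallins (804 and 532), centring on the median (609 and 399) and protein-coding genes only (558 and 374). Scaling the sums raised the values of both libraries under the same added 1 and filter. It thus also acted as a smaller constant, and 13513 and 13557 genes passed the filter. Scaling moved the median of all genes by at most 0.08. Of 800 counts of list members under the alternatives, 84 moved by more than 1.5 times, 48 of them with 5 RPKM added. With 0.1 RPKM added 7 moved. Among these, the higher Notch members went from 2 to 6, with 8 lower, and the higher hedgehog members from 0 to 2, with 1 lower. No named gene changed direction past the 4-fold line under an alternative, while 62 of 2871 values dropped under it and 70 passed it. Over the 50 lists, the median changed sign under a scaling for 2, hedgehog and respiratory chain, both within 0.06 of 0 in the main comparison. No paired analysis was possible because each RNA group held 1 library. Values near 0 took preferred ratios: among 642 genes above 0 and under 0.1 RPKM in both libraries, the log2 ratio of epithelium over forebrain piled up at -0.6 (97 genes), 0.4 (58) and 1.0 (33).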

Other observations

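Gene symbols were also grouped into families by their letters before the first digit, a grouping not picked by hand. The families named below are a selection from it. Of 206 families with at least 8 genes compared, 148 had no gene at least 4-fold higher in epithelium. Collagens (Col) had 11 of 31 higher (35.5%, against 4.68% of all genes) and 3 lower, and the metalloproteases of the Adamts group, which cut matrix proteins, had 3 of 12 higher and 0 lower. Genes of the prefix Man, mostly mannosidases that trim sugar chains on secreted proteins, had 3 of 10 higher and 0 lower. Like shares were found for the prefixes Epb (3 of 8 higher) and S (4 of 14 higher), with 0 lower in each. On the lower side, beta tubulins (Tubb) had 4 of 9 at least 4-fold lower (3.25% of all genes were), Sox factors 5 of 15, with 1 higher, and kinesins (Kif) 6 of 31, with 0 higher. Zinc finger genes (Zfp), the largest family, had 2 of 305 higher and 2 lower.

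The miRNA genes past the 4-fold line were listed in 1 library of the comparison and not in the other. Of 29 miRNA genes compared, 13 were at least 4-fold higher in epithelium, and all 13 were listed at 0 in forebrain and in fibers. The 7 that were lower were all listed at 0 in epithelium. Mir223, a miRNA of myeloid cells, was at 30.5 RPKM in epithelium, and Mir210, a miRNA of the hypoxia response, at 67.4 RPKM in forebrain. RPKM of such short genes can rest on few reads, so no level is read from them.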
